A study of Mus musculus with 31 samples.

Results

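The 8 genes described here, Irf9, Stat2, Stat3, Irf1, Irf2, Irf3, Irf7 and Irf5, encode transcription factors of the interferon regulatory factor (IRF) and signal transducer and activator of transcription (STAT) families. They were chosen by symbol from the 55492 rows of a bulk RNA-seq count table, and all 8 were among the 22172 rows kept by a filter on low counts. Type I interferon binds a surface receptor whose kinases phosphorylate STAT proteins, and STAT2 with a partner STAT protein and IRF9 forms ISGF3, a complex that binds the interferon-stimulated response element (ISRE) of antiviral genes. IRF3, IRF5 and IRF7 are activated by sensors of nucleic acids and drive interferon genes, with Irf7 itself an interferon-induced gene that amplifies the response. IRF1 activates antigen-presentation genes, IRF2 binds the same element and can oppose it, and in mice loss of Irf2 leaves stem cells under chronic interferon signalling. STAT3 transmits signals of interleukin-6 family cytokines, and STAT dimers bind the gamma-activated site (GAS).

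The cells were long-term haematopoietic stem cells (LT-HSCs) from mouse bone marrow, sorted as lineage-negative, Sca1+ and cKit+ cells with CD150 and without CD48. In VFDM mice the transplanted marrow was labelled SclCre;FF1;Dnmt3Δ/Δ;GFP, that is, a mutant human JAK2 transgene (FF1), which drives a myeloproliferative neoplasm, with deletion of Dnmt3a, a DNA methyltransferase. In VF mice it was labelled SclCre;FF1;GFP, with the same transgene and intact Dnmt3a. Each group thus carries the transgene, and none of the 8 groups is free of it. The Scl promoter drives Cre in blood stem cells and endothelium, the table has a CreERT2 row, and wild-type hosts received the mutant marrow with a 10-fold excess of wild-type marrow, so that host and competitor cells remained. The labels give no GFP gate for the sort. Treatment started 4 weeks after transplant and lasted 8 weeks, with both drugs (COMBO), 5-azacytidine (AZA, 2 mg/kg by daily intraperitoneal injection, a nucleoside that depletes DNA methyltransferases), pegylated interferon alpha (IFN, 25 µg/kg weekly under the skin) or vehicle. There were 4 libraries in each of the 8 groups (2 genotypes by 4 treatments) except VFDM COMBO, which had 3, numbered 2 to 4.

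The 31 libraries held 17782394 to 73910928 counts, and 17087 to 28851 rows had a count. Levels are given as CPM, counts scaled to the size of each library with TMM factors. A change is the log2 fold change ± SE from edgeR's quasi-likelihood test, and it was called where the Benjamini-Hochberg adjusted p over 22172 genes was under 0.05. Dnmt3a RNA was at 102 to 111 CPM in VFDM IFN libraries 1, 2 and 4 but at 162 CPM in the library labelled VFDM IFN 3, against 159.8 to 178 CPM in VF IFN libraries, and CreERT2 was at 113 CPM there and at 212 to 244 CPM in the other 3. That library therefore went against its label. Each called change of a member that rests on it is given without it as well, and where no member was called in a comparison that uses it, none was called without it. Group means of Dnmt3a were 43.9 to 119.5 CPM in the 4 VFDM groups, against 153 to 234 CPM in the 4 VF groups. The lowest was that of VFDM COMBO, with libraries at 23.0 to 57.0 CPM, while the other VFDM groups had means of 97.8 to 119.5 CPM. Among VF libraries VF COMBO library 3 was the lowest, at 104 CPM of Dnmt3a, a level within the VFDM range, with CreERT2 at 94.3 CPM, below the 152.6 CPM of the lowest VFDM library other than VFDM IFN 3. The sorted markers Kit (460 to 892 CPM) and Slamf1, which encodes CD150 (21.8 to 103 CPM), were present in all libraries. The stem-cell genes Procr, Hlf and Mecom were low in VFDM COMBO libraries, with Procr at 0.0315 to 0.439 CPM, against 34.0 to 40.4 CPM in VFDM vehicle libraries. In bulk RNA, fewer cells of a type and less RNA per cell cannot be told apart.

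The promoters of the members that responded to interferon, and of Irf1 and Irf2, are shown because they hold or lack the elements that ISGF3 and STAT dimers bind. Each is the RefSeq window (GRCm38.p6) of 250 bases before to 50 after a start, 5′ to 3′ on the strand of the gene. Capitals mark matches to the ISRE core, GAAANNGAAA on either strand, or to GAS, TTCNNNGAA, which is its own reverse complement. The windows are Irf7 at chr7:141266375-141266674 on the minus strand, and on the plus strand Irf9 (the first of 2 windows) at chr14:55603735-55604034, Stat2 at chr10:128270248-128270547, Irf1 (the first of 2) at chr11:53769764-53770063 and Irf2 at chr8:46739495-46739794.
Irf7: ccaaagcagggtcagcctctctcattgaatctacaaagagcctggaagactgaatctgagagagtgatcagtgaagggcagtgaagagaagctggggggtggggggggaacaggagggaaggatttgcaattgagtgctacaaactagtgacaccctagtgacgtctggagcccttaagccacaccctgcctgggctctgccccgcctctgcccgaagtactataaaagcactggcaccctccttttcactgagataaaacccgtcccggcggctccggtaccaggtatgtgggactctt
Irf9: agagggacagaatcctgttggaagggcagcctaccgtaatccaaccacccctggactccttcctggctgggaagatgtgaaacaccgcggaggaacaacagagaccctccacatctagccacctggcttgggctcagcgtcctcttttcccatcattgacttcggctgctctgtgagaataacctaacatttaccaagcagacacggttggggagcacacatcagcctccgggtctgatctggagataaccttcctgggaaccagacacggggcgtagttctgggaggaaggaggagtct
Stat2: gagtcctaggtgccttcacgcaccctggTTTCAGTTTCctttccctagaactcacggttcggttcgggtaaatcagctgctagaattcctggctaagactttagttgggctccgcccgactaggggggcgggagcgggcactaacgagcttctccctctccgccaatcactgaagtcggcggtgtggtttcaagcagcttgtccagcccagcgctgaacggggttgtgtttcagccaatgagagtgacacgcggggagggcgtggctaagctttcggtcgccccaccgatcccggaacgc
Irf1: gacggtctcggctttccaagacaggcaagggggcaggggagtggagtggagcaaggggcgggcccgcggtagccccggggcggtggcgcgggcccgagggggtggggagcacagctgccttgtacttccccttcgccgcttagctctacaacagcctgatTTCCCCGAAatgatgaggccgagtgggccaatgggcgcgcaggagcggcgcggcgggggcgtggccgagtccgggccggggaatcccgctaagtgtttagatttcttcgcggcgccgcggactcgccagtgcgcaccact
Irf2: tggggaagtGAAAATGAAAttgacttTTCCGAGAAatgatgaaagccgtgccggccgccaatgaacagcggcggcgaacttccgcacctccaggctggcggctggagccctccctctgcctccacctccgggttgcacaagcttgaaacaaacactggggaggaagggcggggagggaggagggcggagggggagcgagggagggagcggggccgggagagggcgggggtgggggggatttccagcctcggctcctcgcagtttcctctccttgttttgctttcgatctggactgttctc
Stat2 held TTTCAGTTTC, the ISRE core read on the opposite strand, with its first base 222 bases before the start. Irf2 held both motifs, GAAAATGAAA from 241 and TTCCGAGAA from 224 bases before the start, while the first Irf1 window held TTCCCCGAA from 90 bases before it. The windows of Irf7, both of Irf9, the second of Irf1, and those of Irf3, Irf5 and Stat3 had no match, which says only that these letters are not in them. Both Irf9 windows and the second Irf1 window begin after the gene starts given below, so no base before that start of Irf9 was searched. Of 32851 promoter windows of the same length, 3.44% held the ISRE core and 8.3% held GAS. Among 22 listed ISGF3 target genes, 14 had a window and 8 of these had an ISRE core match.

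**Figure D1:**
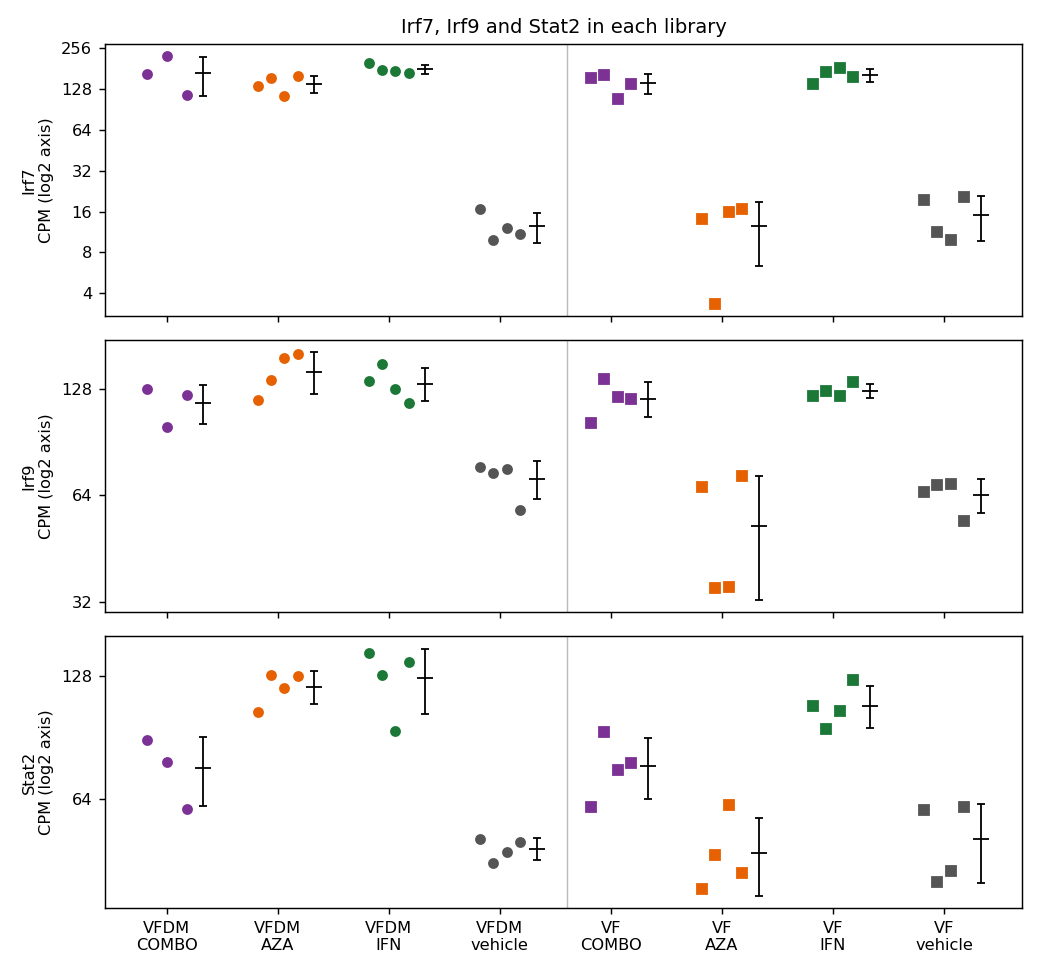
CPM of Irf7, Irf9 and Stat2 in each library (log2 axes); columns are the 8 groups, circles are VFDM and squares VF libraries, and bars give the mean ± SD (n = 3 for VFDM COMBO, otherwise 4). Irf7 lies at 108 to 224 CPM in the 5 groups VFDM COMBO, VFDM AZA, VFDM IFN, VF COMBO and VF IFN, and at 3.34 to 20.4 CPM in VFDM vehicle, VF AZA and VF vehicle.

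Irf7, Irf9 and Stat2 rose under interferon in VF stem cells, and edgeR called none of the other 5 members. Irf7 (ENSMUSG00000025498, chr7:141262706-141266481, minus strand), the member that amplifies interferon production, had 139, 170.3, 184 and 157 CPM in VF IFN libraries, against 19.4, 11.3, 9.80 and 20.4 CPM in VF vehicle libraries. Every VF IFN library was above every VF vehicle library. The log2 fold change was 3.43 ± 0.32 (10.8-fold; edgeR, adjusted p = 1.21e-08). Irf9 (ENSMUSG00000002325, chr14:55603571-55610030, plus strand), the DNA-binding subunit of ISGF3, had 122, 126, 122 and 134 CPM in VF IFN libraries, against 65.3, 68.3, 68.8 and 54.0 CPM in VF vehicle libraries, and these ranges did not overlap. Its log2 fold change was 0.97 ± 0.18 (edgeR, adjusted p = 0.000672). Stat2 (ENSMUSG00000040033, chr10:128270559-128292849, plus strand), the transactivating subunit, had 108, 94.7, 105 and 125 CPM in VF IFN libraries, against 60.0, 40.2, 42.7 and 61.3 CPM in VF vehicle libraries. These groups were also apart, with a log2 fold change of 1.09 ± 0.17 (edgeR, adjusted p = 0.000109). Of all genes tested, 1.27% were called higher in this comparison, against 3 of the 8 members. Irf3, at -0.53 ± 0.18 (edgeR, adjusted p = 0.126), was called lower by DESeq2 (-0.52, adjusted p = 0.0424), and by edgeR without VF vehicle library 3 (-0.63, adjusted p = 0.0416). It had 39.2 to 45.4 CPM in VF IFN libraries. VF vehicle libraries had 64.0, 47.6, 47.9 and 88.5 CPM, so that libraries 1 and 4 stood well above 2 and 3.

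In VFDM stem cells interferon raised Irf7, Irf9 and Stat2 as well. Irf7 had 198, 177, 173 and 168 CPM in VFDM IFN libraries, against 16.8, 9.85, 12.1 and 11.01 CPM in VFDM vehicle libraries, with no overlap. The log2 fold change was 3.85 ± 0.32 (edgeR, adjusted p = 2.81e-09). Irf9 had 135, 150.1, 128 and 116 CPM in VFDM IFN libraries, against 76.7, 74.02, 75.8 and 58.0 CPM in VFDM vehicle libraries. It was higher in every VFDM IFN library, by 0.89 ± 0.17 (edgeR, adjusted p = 0.00316). Stat2 had 145, 129, 93.6 and 138 CPM in VFDM IFN libraries, against 51.0, 44.6, 47.4 and 50.3 CPM in VFDM vehicle libraries, the lowest of the interferon libraries being the one labelled VFDM IFN 3. Its log2 fold change was 1.39 ± 0.17 (edgeR, adjusted p = 2.25e-06). Without that library the log2 fold changes were 3.86 ± 0.34 for Irf7, 0.91 ± 0.19 for Irf9 and 1.51 ± 0.17 for Stat2, and all 3 were called (edgeR, adjusted p = 1.39e-08, 0.0078 and 1.04e-06). In this comparison 0.916% of all genes were called higher.

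The response to interferon was not called different between the genotypes for any member. VFDM minus VF differences of the log2 fold change were 0.42 ± 0.41 for Irf7, -0.08 ± 0.25 for Irf9 and 0.30 ± 0.24 for Stat2. The largest was that of Irf3, 0.63 ± 0.25, with an adjusted p of 0.761 in edgeR. No gene of the whole table was called (0%), although 1149 had an unadjusted p under 0.05 in edgeR and DESeq2 called 38. Between VFDM IFN and VF IFN libraries 0 of 8 members were called by edgeR or by DESeq2, and none had an unadjusted p under 0.05 in edgeR. Of all genes, edgeR called 0.00902% in either direction and DESeq2 called 13. Megakaryocyte genes (6 of 6 measured) summed to 652 to 1324 CPM in VFDM IFN libraries, against 167 to 434 CPM in VFDM vehicle libraries, and to 1006 to 1272 CPM in VF IFN libraries, against 323 to 512 CPM in VF vehicle libraries. Neutrophil genes (6 of 6) summed to 63.2 to 447 CPM in VFDM IFN libraries, against 2.40 to 62.5 CPM in VFDM vehicle libraries, and to 36.4 to 232 CPM in VF IFN libraries, against 1.44 to 14.8 CPM in VF vehicle libraries. None of the 12 genes was at 0 throughout a group. Genes of plasmacytoid dendritic cells, which hold Irf7 without stimulation, summed over 6 of 6 to 155 to 188 CPM in VFDM IFN libraries, against 174 to 190.7 CPM in VFDM vehicle libraries, but to 180.2 to 209 CPM in VF IFN libraries, against 126 to 156 CPM in VF vehicle libraries. Most of the sum was Tcf4, at 157 to 196 CPM in VF IFN libraries, against 106 to 148.5 CPM in VF vehicle libraries. None of the 6 was at 0 throughout VF IFN, against 3 in VF vehicle, and Siglech had 1.21, 0.0203, 0 and 2.05 CPM in VF IFN libraries, against 0 CPM in all VF vehicle libraries. The 10 listed LT-HSC genes summed to 1225 to 1572 CPM in VFDM IFN libraries, against 1779 to 1997 CPM in VFDM vehicle libraries. In VF IFN libraries they summed to 1310 to 1647 CPM, against 1309 to 1419 CPM in VF vehicle libraries. The part of these cell types in the rises of Irf7, Irf9 and Stat2 was not tested.

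Irf7, Irf9 and Stat2 were higher in VFDM AZA than in VFDM vehicle libraries. The mean log2 CPM of 22 listed ISGF3 target genes was 5.99 to 6.36 in VFDM AZA libraries and 6.28 to 6.61 in VFDM IFN libraries, against 3.92 to 4.16 in VFDM vehicle libraries. With these files an effect of azacytidine and a mix-up of treatment labels cannot be told apart, which holds for each comparison that uses VFDM AZA. Irf7 had 135, 154, 115 and 159 CPM in VFDM AZA libraries, against 16.8, 9.85, 12.1 and 11.01 CPM in VFDM vehicle libraries. All 4 VFDM AZA libraries were far above the vehicle range, with a log2 fold change of 3.50 ± 0.32 (11.3-fold; edgeR, adjusted p = 2.23e-08). Irf9 had 119, 135, 156 and 160.0 CPM in VFDM AZA libraries, against 58.0 to 76.7 CPM in VFDM vehicle libraries, a log2 fold change of 1.005 ± 0.18 (edgeR, adjusted p = 0.00081). Stat2 had 105, 129, 119.7 and 128 CPM in VFDM AZA libraries, against 44.6 to 51.0 CPM in VFDM vehicle libraries, a log2 fold change of 1.32 ± 0.17 (edgeR, adjusted p = 8.22e-06). None of these 3 genes overlapped between the groups, and 0.852% of all genes were called higher. Erythroid genes (6 of 6 measured) summed to 35.0 to 284 CPM in VFDM AZA libraries, against 6.64 to 74.8 CPM in VFDM vehicle libraries. Megakaryocyte genes summed to 741 to 801 CPM, against 167 to 434 CPM, and the 10 listed LT-HSC genes to 1293 to 1650 CPM, against 1779 to 1997 CPM. The part of these cell types was not tested. The 6 genes of plasmacytoid dendritic cells summed to 168 to 200.3 CPM in VFDM AZA libraries, against 174 to 190.7 CPM in VFDM vehicle libraries. Of these, 3 were at 0 in every VFDM AZA library, Siglech among them, and Ccr9 reached at most 0.316 CPM.

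In VF stem cells none of these genes was called under azacytidine. Irf7 had 14.1, 3.34, 15.9 and 16.6 CPM in VF AZA libraries, against 9.80 to 20.4 CPM in VF vehicle libraries, and its log2 fold change was -0.27 ± 0.30 (edgeR, adjusted p = 0.763). Irf9 had 67.3, 35.1, 35.3 and 72.4 CPM in VF AZA libraries, against 54.0 to 68.8 CPM in VF vehicle libraries, so that VF AZA libraries 2 and 3 lay below the vehicle range. Both were among the libraries with fewer than 20000 detected rows. Its log2 fold change was -0.29 ± 0.17 and that of Stat2 was -0.11 ± 0.17. By edgeR 0 of 8 members were called, 1 had an unadjusted p under 0.05, and 1.2% of all genes were called in either direction. DESeq2 called 0 members and 1023 of all genes.

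The difference between the genotypes in the libraries labelled AZA was itself called for these 3 members, with the limit on the VFDM AZA labels given above. The VFDM minus VF difference of the azacytidine response was 3.77 ± 0.43 for Irf7, 1.42 ± 0.24 for Stat2 and 1.29 ± 0.25 for Irf9 (edgeR, adjusted p = 3.89e-06, 0.00118 and 0.00472), where 0.564% of all genes were called higher. On omission of libraries under 20000 detected rows, VF AZA kept only libraries 1 and 4 and VFDM AZA only libraries 1 and 2. The difference of Irf9 then fell short of the threshold, at 0.70 (edgeR, adjusted p = 0.246). It did so too in a fit of the 4 groups alone (1.30; edgeR, adjusted p = 0.06). Set directly against VF AZA, VFDM AZA libraries were higher for Irf7 by 3.49 ± 0.32, for Irf9 by 1.44 ± 0.18 and for Stat2 by 1.35 ± 0.17 (edgeR, adjusted p = 2.1e-08, 2.16e-06 and 4.46e-06), with 0.636% of all genes called higher.

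Azacytidine was also set against interferon within each genotype, a comparison added after the levels were seen. With the same limit on the VFDM AZA labels, in VFDM stem cells no member was called, with log2 differences (VFDM AZA minus VFDM IFN) of -0.35 ± 0.29 for Irf7, 0.11 ± 0.17 for Irf9 and -0.07 ± 0.17 for Stat2. No gene of the table was called (0%), with 1053 at an unadjusted p under 0.05 in edgeR and 80 called by DESeq2. In VF stem cells Irf7, Irf9 and Stat2 were lower under azacytidine than under interferon, with log2 differences of -3.69 ± 0.32, -1.26 ± 0.18 and -1.20 ± 0.17 (edgeR, adjusted p = 5.69e-09, 2.06e-05 and 2.93e-05), where 0.645% of all genes were called lower. The comparisons of this and the preceding paragraphs share their vehicle and drug groups and are not independent.

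**Figure D2:**
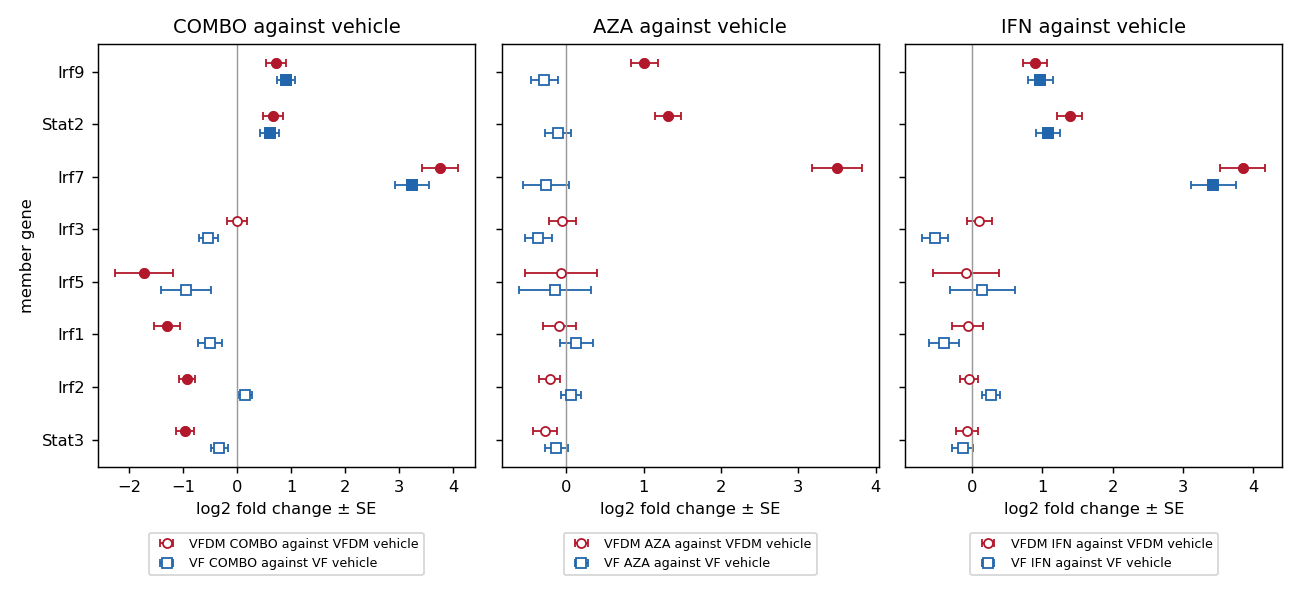
Log2 fold change ± SE of each member against the vehicle of the same genotype, from edgeR, for COMBO, AZA and IFN; red circles are VFDM, blue squares VF, and filled symbols were called at an adjusted p under 0.05. Irf9, Stat2 and Irf7 lie right of 0 in each panel except in VF AZA, and Stat3, Irf1, Irf2 and Irf5 are called lower in VFDM COMBO.

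Under the combination Irf7, Irf9 and Stat2 were higher in both genotypes, and 4 other members were lower in VFDM COMBO than in VFDM vehicle libraries. In VFDM COMBO libraries Irf7 had 165, 224 and 115 CPM, against 9.85 to 16.8 CPM in VFDM vehicle libraries (log2 fold change 3.75 ± 0.33; edgeR, adjusted p = 3.45e-09). Irf9 had 128, 99.8 and 122 CPM in VFDM COMBO libraries, against 58.0 to 76.7 CPM in VFDM vehicle libraries (0.71 ± 0.19; edgeR, adjusted p = 0.00719). Both genes were without overlap. Stat2 had 89.4, 79.0 and 60.5 CPM in VFDM COMBO libraries, against 44.6 to 51.0 CPM in VFDM vehicle libraries (0.66 ± 0.18; edgeR, adjusted p = 0.0108), and without VFDM COMBO library 2 it was not called (adjusted p = 0.0634). In this comparison 5.52% of all genes were called higher and 10.5% lower, against 3 and 4 of the 8 members.

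**Figure D3:**
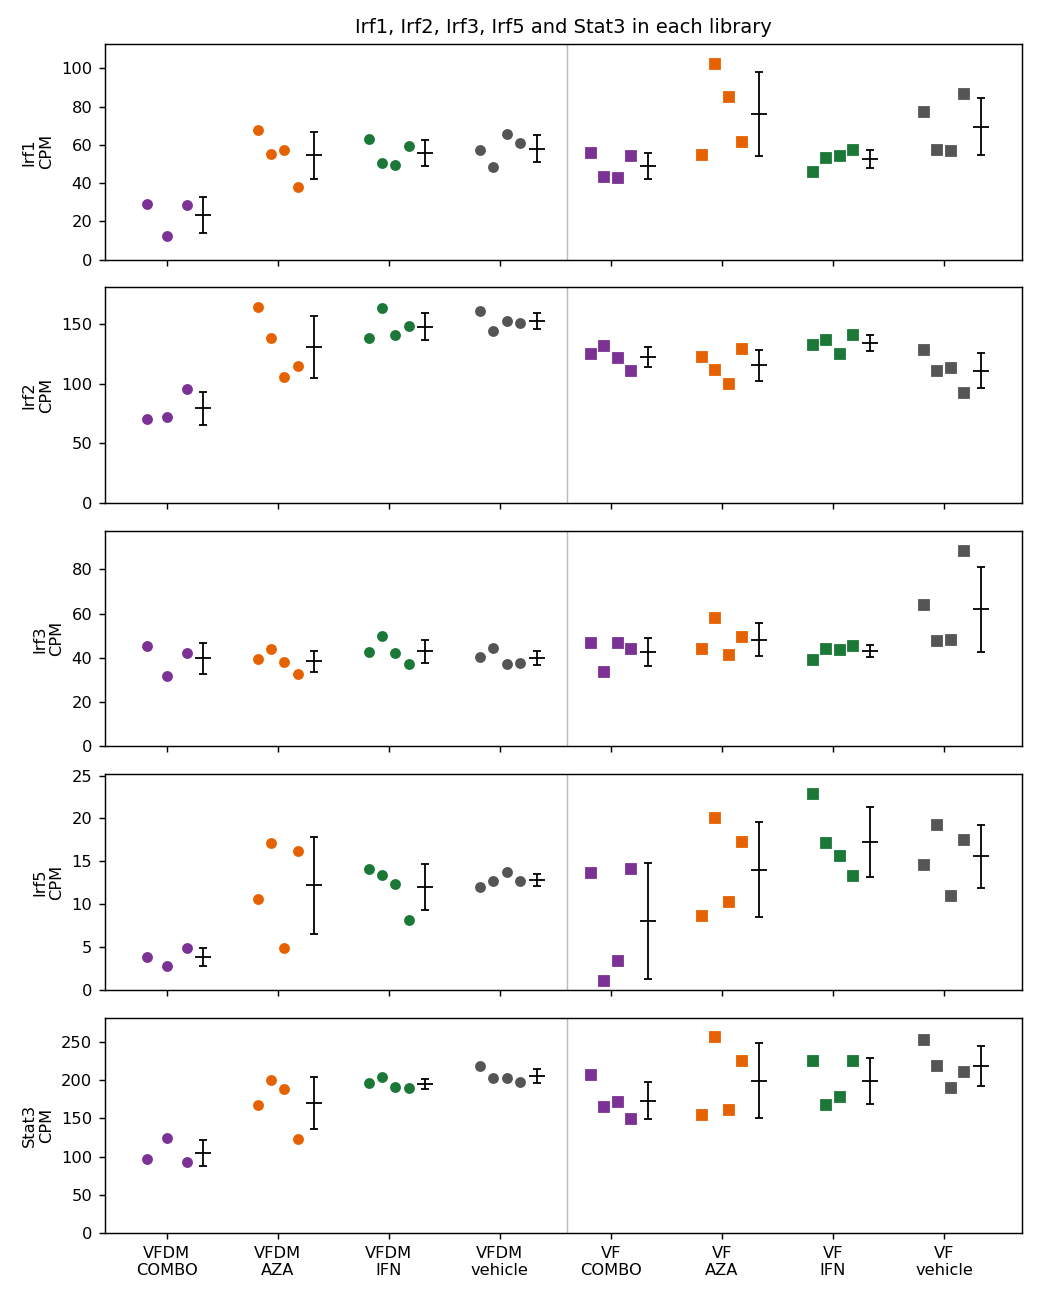
CPM of Irf1, Irf2, Irf3, Irf5 and Stat3 in each library (linear axes from 0); columns are the 8 groups, circles are VFDM and squares VF libraries, and bars give the mean ± SD (n = 3 for VFDM COMBO, otherwise 4). The VFDM COMBO libraries lie lowest for Irf1 (12.5 to 29.3 CPM) and Irf2 (70.7 to 95.5 CPM) except that VF vehicle library 4 is at 92.2 CPM of Irf2.

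Irf1 (ENSMUSG00000018899, chr11:53770014-53778374, plus strand), the activator of antigen-presentation genes, had 29.3, 12.5 and 28.4 CPM in VFDM COMBO libraries, against 57.2, 48.5, 65.5 and 60.9 CPM in VFDM vehicle libraries. Its log2 fold change was -1.31 ± 0.24 (edgeR, adjusted p = 0.000204). Irf2 (ENSMUSG00000031627, chr8:46739732-46847458, plus strand), which can oppose IRF1, had 70.7, 72.3 and 95.5 CPM in VFDM COMBO libraries, against 161, 144, 153 and 151 CPM in VFDM vehicle libraries (-0.94 ± 0.14; edgeR, adjusted p = 1.67e-05). Neither gene overlapped between the groups. How many of all genes had no such overlap was not counted, here or in the other comparisons. Of 22172 genes, 6554 had an unadjusted p under 0.05 in edgeR here. Stat3 (ENSMUSG00000004040, chr11:100885098-100939540, minus strand), the interleukin-6 signal transducer, had 96.4, 125 and 93.7 CPM in VFDM COMBO libraries, against 219, 203, 203 and 197 CPM in VFDM vehicle libraries (-0.97 ± 0.17; edgeR, adjusted p = 0.000107), again without overlap. Irf5 (ENSMUSG00000029771, chr6:29526625-29541871, plus strand), known from innate immune cells downstream of Toll-like receptors, had 3.78, 2.82 and 4.89 CPM in VFDM COMBO libraries, against 12.0, 12.7, 13.7 and 12.7 CPM in VFDM vehicle libraries. Its libraries were apart too, and the log2 fold change was -1.73 ± 0.53 (edgeR, adjusted p = 0.023), but without VFDM COMBO library 2 or 3 it was not called (adjusted p = 0.0746 and 0.105). Irf3 (ENSMUSG00000003184, chr7:44997648-45002848, plus strand), the factor that starts interferon production after sensing, had 45.3, 31.7 and 42.3 CPM in VFDM COMBO libraries and 37.4 to 44.5 CPM in VFDM vehicle libraries, with a log2 fold change of -0.01 ± 0.19.

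The VFDM COMBO libraries also differed from VFDM vehicle libraries in markers of other cells. Erythroid genes (6 of 6 measured) summed to 1416 to 14610 CPM in VFDM COMBO libraries, against 6.64 to 74.8 CPM in VFDM vehicle libraries. Neutrophil genes (6 of 6) summed to 505 to 1215 CPM in VFDM COMBO libraries, against 2.40 to 62.5 CPM in VFDM vehicle libraries. The 10 LT-HSC genes summed to 726 to 890.2 CPM in VFDM COMBO libraries, against 1779 to 1997 CPM in VFDM vehicle libraries. No gene of these 3 lists was at 0 throughout either group, and their part in the falls of Stat3, Irf1, Irf2 and Irf5 was not tested. Cd48, whose protein the sort selects against, was at 14.1 to 22.8 CPM in VFDM COMBO libraries, against 4.53 to 7.60 CPM in VFDM vehicle libraries. The summed level of the 3 listed genes of cells outside the sort gate was not higher, however. They summed to 18.99 to 28.39 CPM in VFDM COMBO libraries, against 17.7 to 56.98 CPM in VFDM vehicle libraries (medians 21.07 and 28.32 CPM).

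In VF stem cells the combination raised Irf7, Irf9 and Stat2, and edgeR called no member lower. Irf7 had 155, 164, 108 and 139 CPM in VF COMBO libraries, against 9.80 to 20.4 CPM in VF vehicle libraries (3.23 ± 0.32; edgeR, adjusted p = 5.44e-08). Irf9 had 102, 136, 122 and 119.6 CPM in VF COMBO libraries, against 54.0 to 68.8 CPM in VF vehicle libraries (0.90 ± 0.18; edgeR, adjusted p = 0.00128). Both were without overlap. Stat2 had 61.0, 93.3, 75.3 and 78.6 CPM in VF COMBO libraries, against 40.2 to 61.3 CPM in VF vehicle libraries, and these groups overlapped (0.60 ± 0.17; edgeR, adjusted p = 0.0254). The call was lost on omission of VF COMBO library 2 (adjusted p = 0.0631), VF vehicle library 2 (0.0742) or VF vehicle library 3 (0.0661). It was also not made in the fit of the 2 groups alone (edgeR, adjusted p = 0.233). Omission of libraries under 20000 detected rows left library 4 alone in VF COMBO, with a Stat2 log2 fold change of 0.65. Irf3 came next, at -0.54 ± 0.18 (edgeR, adjusted p = 0.055), with 46.8, 33.4, 46.6 and 43.8 CPM in VF COMBO libraries, against 64.0, 47.6, 47.9 and 88.5 CPM in VF vehicle libraries. It was called lower by DESeq2 (-0.51, adjusted p = 0.027), and by edgeR without VF vehicle library 2 or 3 (adjusted p = 0.0357 and 0.0232). Here 4.16% of all genes were called higher. Erythroid genes summed to 72.5 to 537 CPM in VF COMBO libraries, against 6.01 to 225 CPM in VF vehicle libraries. The 10 listed LT-HSC genes summed to 947.6 to 1302 CPM in VF COMBO libraries, against 1309 to 1419 CPM in VF vehicle libraries. Genes of T and NK cells (6 of 6) summed to 17.35 to 136.5 CPM, against 3.79 to 13.02 CPM. The part of these cell types was not tested.

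Across genotypes under the combination, 3 members were lower in VFDM COMBO than in VF COMBO libraries. Irf1 had 12.5 to 29.3 CPM in VFDM COMBO libraries, against 42.6 to 55.5 CPM in VF COMBO libraries (-1.06 ± 0.24; edgeR, adjusted p = 0.00726). The log2 fold change was -0.72 ± 0.17 for Stat3 and -0.62 ± 0.14 for Irf2 (edgeR, adjusted p = 0.00952 and 0.00798), and 3.91% of all genes were called lower. In a fit of these 2 groups alone none of the 3 was called (adjusted p = 0.4 for Irf1, 0.268 for Stat3 and 0.399 for Irf2), and without VFDM COMBO library 2 or 3 only 1 of them was. Stat3 was also not called without VF COMBO library 1 or VFDM COMBO library 4 (adjusted p = 0.0556 and 0.0824). Omission of libraries under 20000 detected rows left library 4 alone in VF COMBO, so that its calls cannot be judged. The log2 fold change was then -0.60 for Stat3 and -0.37 for Irf2. Erythroid genes summed to 1416 to 14610 CPM in VFDM COMBO libraries, against 72.5 to 537 CPM in VF COMBO libraries, neutrophil genes to 505 to 1215 CPM, against 1.39 to 245.5 CPM, and LT-HSC genes to 726 to 890.2 CPM, against 947.6 to 1302 CPM, and their part was not tested. For the response to the combination, the VFDM minus VF difference was called for Irf2 alone, at -1.08 ± 0.19 (edgeR, adjusted p = 0.000924), with 2.49% of all genes called lower. Irf2 was lower in all 3 VFDM COMBO than in all VFDM vehicle libraries, while VF COMBO libraries had 111 to 132 CPM, against 92.2 to 128 CPM in VF vehicle libraries.

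Stat2, Stat3, Irf1 and Irf2 were lower in VFDM COMBO libraries than in those of each drug alone. Relative to VFDM IFN the called changes were -0.73 ± 0.19 for Stat2, -0.89 ± 0.17 for Stat3, -1.24 ± 0.24 for Irf1 and -0.89 ± 0.14 for Irf2 (edgeR, adjusted p = 0.0108, 0.000603, 0.000788 and 7.65e-05), where 6.28% of all genes were called lower. Without the library labelled VFDM IFN 3 these were -0.85, -0.90, -1.30 and -0.92, all called. Irf5 fell just outside, at -1.64 ± 0.53 (edgeR, adjusted p = 0.0505), and Irf7 was at -0.09 ± 0.31. Irf5 was called lower by DESeq2 (-1.61, adjusted p = 0.017) and in a fit of the 2 groups alone (-1.60; edgeR, adjusted p = 0.0279). The same held without libraries under 20000 detected rows (-1.43; edgeR, adjusted p = 0.00282), where VFDM COMBO kept only libraries 2 and 4. Leaving out VFDM IFN library 1 or 4 or VFDM COMBO library 3 or 4 ended the call of Stat2 (adjusted p = 0.0727, 0.0579, 0.0591 and 0.148). Relative to VFDM AZA, Stat2 (-0.66 ± 0.19), Stat3 (-0.69 ± 0.17), Irf1 (-1.22 ± 0.24), Irf2 (-0.72 ± 0.14) and Irf5 (-1.67 ± 0.53) were called lower (edgeR, adjusted p = 0.0229, 0.00787, 0.0011, 0.00115 and 0.048), where 5.87% of all genes were, but none of the 5 was called in a fit of these 2 groups alone. Leaving out VFDM AZA library 2 or 4 or VFDM COMBO library 3 ended the calls of Stat2 and Irf5, VFDM COMBO library 2 those of Stat3 and Irf5, and VFDM COMBO library 4 those of all 3. VFDM AZA library 3 alone ended that of Stat2 (adjusted p = 0.056) and VFDM AZA library 1 that of Irf5 (adjusted p = 0.0695). Erythroid genes summed to 1416 to 14610 CPM in VFDM COMBO libraries, against 38.17 to 99.87 CPM in VFDM IFN and 35.04 to 284.3 CPM in VFDM AZA libraries. For neutrophil genes these ranges were 505.2 to 1215 CPM, against 63.2 to 446.7 and 0.152 to 44.9 CPM. For LT-HSC genes they were 726.4 to 890.2 CPM, against 1225 to 1572 and 1293 to 1650 CPM. Their part was not tested.

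In VF stem cells the combination was not called different from interferon alone for any member. Stat2 had 61.0 to 93.3 CPM in VF COMBO libraries, against 94.7 to 125 CPM in VF IFN libraries, without overlap, and its log2 difference was -0.49 ± 0.17 (edgeR, adjusted p = 0.286). Irf5 was at 1.098 and 3.36 CPM in VF COMBO libraries 2 and 3 and at 13.6 and 14.1 CPM in libraries 1 and 4, against 13.3 to 22.9 CPM in VF IFN libraries (-1.10 ± 0.47; edgeR, adjusted p = 0.376). In edgeR 2 members had an unadjusted p under 0.05, and 0.00902% of all genes were called in either direction. DESeq2 called 0 members as well, and 280 of all genes. Relative to VF AZA, VF COMBO libraries were higher for Irf7 by 3.50 ± 0.32, for Irf9 by 1.19 ± 0.18 and for Stat2 by 0.70 ± 0.17 (edgeR, adjusted p = 2.35e-08, 7.18e-05 and 0.0231), with 1.06% of all genes called higher. The call of Stat2 was lost on omission of VF AZA library 1 (adjusted p = 0.0701), 2 (0.0516) or 4 (0.0615), and likewise of VF COMBO library 2 (0.0873). Of the 3 only Irf7 was called in a fit of the 2 groups alone. With libraries under 20000 detected rows omitted, library 4 alone remained in VF COMBO. The log2 fold change was then 0.78 for Irf9 and 0.97 for Stat2.

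**Figure D4:**
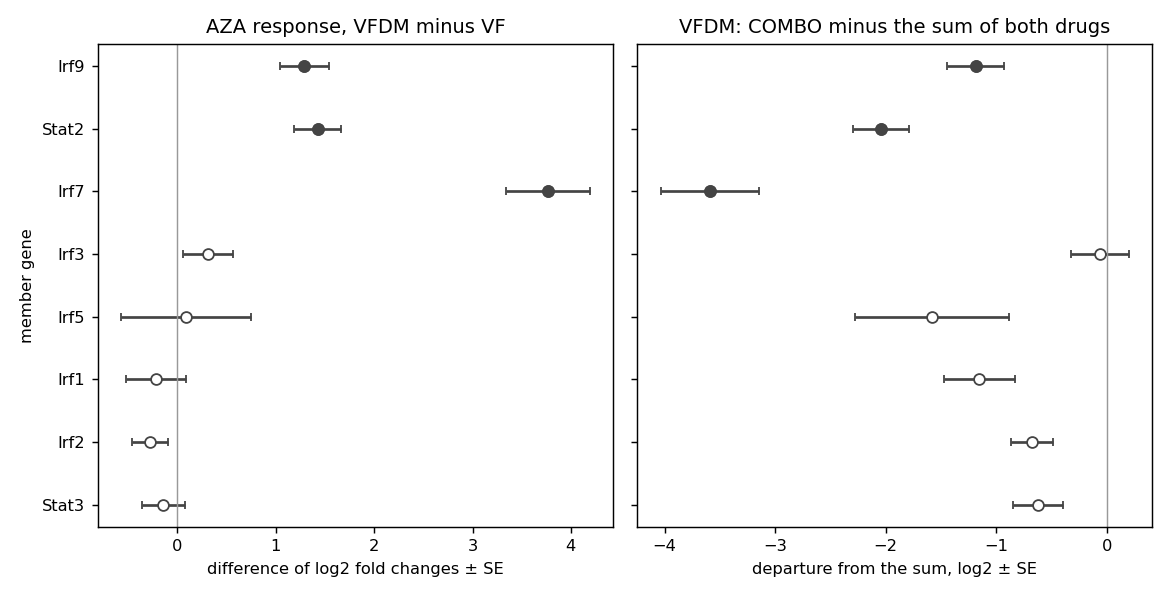
Left, the VFDM minus VF difference of the log2 fold change under AZA; right, the log2 change under COMBO minus the sum of the log2 changes under AZA and IFN in VFDM; points are edgeR estimates ± SE for each member and filled points were called. Irf7, Stat2 and Irf9 are at 3.77, 1.42 and 1.29 on the left and at -3.59, -2.04 and -1.19 on the right.

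Whether the drugs add up on the log2 scale was tested as COMBO minus the sum of AZA and IFN, each relative to vehicle. In VFDM libraries the term was -3.59 ± 0.44 for Irf7, -2.04 ± 0.25 for Stat2 and -1.19 ± 0.26 for Irf9 (edgeR, adjusted p = 6.73e-06, 4.63e-06 and 0.00711), with 1.87% of all genes called lower. For Irf7, the VFDM COMBO, VFDM AZA and VFDM IFN libraries held 115 to 224 CPM, so the level under both drugs was below the product of the single folds. Without the library labelled VFDM IFN 3 the terms were -3.61, -2.16 and -1.20 and remained called, and without VFDM COMBO library 3 Irf9 was not (-1.02, adjusted p = 0.0536). Irf1 (-1.15 ± 0.32, adjusted p = 0.0512) and Irf2 (-0.68 ± 0.19, adjusted p = 0.0594) fell just outside the threshold. The median of this term over all genes was -0.10, against -1.17 over the 8 members. The part of the erythroid, neutrophil and LT-HSC differences of VFDM COMBO libraries, given above, was not tested for these terms. In VF stem cells 0 of 8 members were called by edgeR or DESeq2, and none had an unadjusted p under 0.05 in edgeR. Of all genes, edgeR called 0.0857% in either direction and DESeq2 called 280.

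Under vehicle, VFDM and VF stem cells did not differ in a called way for any member. Irf2 had 161, 144, 153 and 151 CPM in VFDM vehicle libraries, against 128, 111, 113 and 92.2 CPM in VF vehicle libraries, without overlap (0.46 ± 0.13; edgeR, adjusted p = 0.087). Irf3 had 40.4, 44.5, 37.4 and 37.8 CPM in VFDM vehicle libraries, against 64.0, 47.6, 47.9 and 88.5 CPM in VF vehicle libraries, where libraries 1 and 4 stood well above 2 and 3 (-0.63 ± 0.18; edgeR, adjusted p = 0.08). DESeq2 called both, 2 of 8, and 737 of all genes, while edgeR called 212 genes (0.956%) in either direction. Irf7 was at -0.28 ± 0.29, Irf9 at 0.15 ± 0.17 and Stat2 at -0.08 ± 0.17 between the genotypes.

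The order of group means divided the members into sets. For Irf7 the 5 groups VFDM IFN, VFDM COMBO, VF IFN, VF COMBO and VFDM AZA (179 ± 13.4 to 141 ± 20.3 CPM, SD) came before VF vehicle, VF AZA and VFDM vehicle (15.2 ± 5.46 to 12.5 ± 3.06 CPM), and the only neighbours whose libraries did not overlap were VFDM AZA and VF vehicle. For Irf9 the 5 higher groups (143 ± 19.1 in VFDM AZA to 117 ± 14.8 CPM in VFDM COMBO) were likewise apart from VFDM vehicle, VF vehicle and VF AZA (71.1 ± 8.84 to 52.5 ± 20.1 CPM). Stat2 had a different break. VFDM IFN, VFDM AZA and VF IFN (126 ± 22.9 to 108 ± 12.7 CPM) were apart from VF COMBO, and VF COMBO and VFDM COMBO (77.0 ± 13.2 and 76.3 ± 14.7 CPM) overlapped VF vehicle. For Irf1 the single break was between VF COMBO and VFDM COMBO (23.4 ± 9.41 CPM), while for Stat3, Irf2, Irf3 and Irf5 each pair of neighbours in the order overlapped.

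Levels were also divided by kilobases of exon, taken as the union over all annotated transcripts. For Irf7 this union, 3776 bases, covers the whole gene span, introns included, which lowers its value. The order of members is therefore approximate. By this measure Stat3 came first in VF vehicle libraries, at 22.9 ± 2.76 CPM per kb (SD, n = 4). Irf3 (18.01 ± 5.59), Irf1 (17.5 ± 3.72) and Irf2 (15.005 ± 2.00) followed, then Irf9 (11.9 ± 1.28), Stat2 (8.61 ± 1.88), Irf5 (5.36 ± 1.25) and Irf7 (4.03 ± 1.45 CPM per kb). In VF IFN libraries Irf7 came first, at 43.0 ± 5.01 CPM per kb, ahead of Irf9 at 23.4 ± 1.04 and Stat3 at 20.8 ± 3.20 CPM per kb. In VFDM AZA libraries Irf7 also came first, at 37.3 ± 5.37 CPM per kb, followed by Irf9 at 26.5 ± 3.55 and Stat2 at 20.3 ± 1.91 CPM per kb. Irf5 and the neighbouring Tnpo3 on the opposite strand share 411 bases, 14.1% of Irf5 exons, and Irf9 shares 123 bases with Rnf31 on its own strand. Reads in shared exons cannot be assigned with certainty, since the strand setting of the counting is not given in the sources used here.

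**Figure D5:**
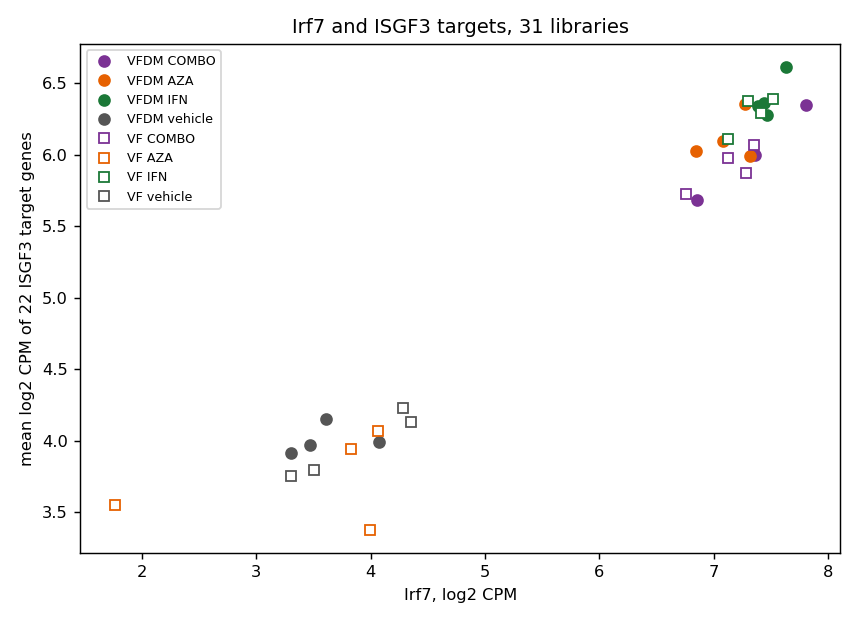
Irf7 (log2 CPM, x axis) and the mean log2 CPM of 22 listed ISGF3 target genes (y axis) in each of the 31 libraries; filled circles are VFDM and open squares VF, with colours for treatment. The 19 libraries of VFDM COMBO, VFDM AZA, VFDM IFN, VF COMBO and VF IFN lie at 6.76 to 7.81 on the x axis and 5.68 to 6.61 on the y axis, and the other 12 at 1.76 to 4.36 and 3.38 to 4.23.

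Target genes of ISGF3 were called higher in nearly full number in each treated group except VF AZA. Of 22 listed ISGF3 targets, 22 were called higher and 0 lower in VFDM AZA, 22 and 0 in VFDM IFN (21 to 22 over the alternatives, which include omission of the library labelled VFDM IFN 3), and 20 and 0 in VFDM COMBO, each against VFDM vehicle. Against VF vehicle 21 were called higher in VF COMBO and 21 in VF IFN, and 1 in VF AZA, Ifit2, named after its value was seen (0.89 ± 0.21; edgeR, adjusted p = 0.0251). Of all genes, 0.852% were called higher in VFDM AZA, 0.916% in VFDM IFN and 5.52% in VFDM COMBO. The shares were 4.16% in VF COMBO and 1.27% in VF IFN, with 65 of 22172 genes in VF AZA. Median log2 fold changes were 1.73 in VFDM COMBO, 1.93 in VFDM AZA and 2.10 in VFDM IFN, and 1.99 in VF COMBO, -0.03 in VF AZA and 2.16 in VF IFN, where the medians over all genes lay between -0.11 and -0.01. Oas2, an enzyme that makes the activator of RNase L, had 212 ± 9.49 CPM in VFDM AZA libraries, against 25.5 ± 2.27 CPM in VFDM vehicle libraries (SD, n = 4 each). Its log2 fold change was 3.06 ± 0.23 (edgeR, adjusted p = 1.49e-10). Ifi44 rose by 2.33 ± 0.19, the helicase Ddx60 by 1.47 ± 0.16 and the nucleic acid sensor Zbp1 by 2.13 ± 0.21 in the same comparison (edgeR, adjusted p = 7.04e-10, 1.9e-07 and 4.25e-08). For the azacytidine response between genotypes 18 of 22 were called higher in VFDM, where 0.564% of all genes were. Below the sum of both drugs in VFDM 20 of 22 were called (18 without the library labelled VFDM IFN 3), where 1.87% of all genes were.

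Genes that activate IRF3, IRF5 and IRF7 changed in part. Of 17 tested (19 listed), 2 were called higher in VFDM AZA, VFDM IFN and VF IFN, the RNA sensors Ddx58, which encodes RIG-I, and Ifih1, which encodes MDA5, and 0 in VF AZA. The shares of all genes called higher were 0.852% in VFDM AZA, 0.916% in VFDM IFN and 1.27% in VF IFN. Ddx58 had 204 ± 20.2 CPM in VFDM AZA libraries, against 94.4 ± 7.23 CPM in VFDM vehicle libraries (SD, n = 4 each), a log2 fold change of 1.11 ± 0.14 (edgeR, adjusted p = 2.56e-06). Ifih1 had 155 ± 14.9 CPM in VFDM AZA libraries, against 85.3 ± 8.03 CPM in VFDM vehicle libraries (0.86 ± 0.15; edgeR, adjusted p = 0.000903). In VF COMBO 3 were called higher, with the ubiquitin ligase Traf6 (0.79 ± 0.19; edgeR, adjusted p = 0.0065), where 4.16% of all genes were. In VFDM COMBO 3 were higher and 2 lower, the kinase Ikbke (-1.52 ± 0.35; edgeR, adjusted p = 0.00224) and Tmem173, which encodes the adaptor STING and was named after its value was seen (-2.77 ± 0.42; edgeR, adjusted p = 1.59e-05), where 5.52% of all genes were called higher and 10.5% lower. The interferon genes themselves were almost without reads. Of 17 type I and II interferon genes 4 had any count, 77 counts in all 31 libraries, of which 72 were of Ifnk and 56 of those in 1 library.

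The receptor chains and kinases upstream of the STATs showed few changes. Of 7 tested, the kinase Jak2 was called higher in VFDM COMBO (0.47 ± 0.12; edgeR, adjusted p = 0.00806), VF COMBO (0.69 ± 0.12; edgeR, adjusted p = 0.000288) and VF IFN (0.52 ± 0.12; edgeR, adjusted p = 0.00803), and was at 0.28 ± 0.12 in VFDM AZA. The receptor chain Ifngr1 rose with the combination in both genotypes, and Jak1 fell in VFDM COMBO (-0.58 ± 0.11; edgeR, adjusted p = 0.000234). Of 15 feedback genes, Usp18, a protease that blocks the interferon receptor, was higher in each treated group except VF AZA. It had 55.4 ± 9.28 CPM in VFDM AZA libraries, against 8.72 ± 2.22 CPM in VFDM vehicle libraries (SD, n = 4 each), a log2 fold change of 2.67 ± 0.26 (edgeR, adjusted p = 2.23e-08). Cish, an inhibitor of cytokine signalling, was called lower in VFDM COMBO (-2.52 ± 0.34), VF COMBO (-1.08 ± 0.29) and VF IFN (-1.44 ± 0.29; edgeR, adjusted p = 1.97e-06, 0.018 and 0.00288). Of the other 8 IRF and STAT genes, all tested, 2 were higher and 2 lower in VFDM COMBO, 1 and 1 in VF COMBO, and 1 and 0 in each of the other 4 treated groups. Of all genes, 5.52% were called higher and 10.5% lower in VFDM COMBO, and 923 of 22172 were called higher and 915 lower in VF COMBO. In VFDM AZA 189 were called higher and 16 lower, in VFDM IFN 203 and 11, in VF AZA 65 and 200, and in VF IFN 281 and 257.

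Among listed targets of IRF1 and STAT3, some were called in VFDM COMBO, where 5.52% of all genes were called higher and 10.5% lower. The part of the falls of Irf1 and Stat3 in these changes was not tested. Of 14 IRF1 targets, 2 were called higher and 4 lower in VFDM COMBO, with a median log2 fold change of -0.71, against -0.08 over all genes. The peptide transporter Tap1 rose there by 0.79 ± 0.13 and the class I transactivator Nlrc5 by 0.49 ± 0.14 (edgeR, adjusted p = 5.2e-05 and 0.0132), while Gbp2 (-0.87 ± 0.29), Gbp5 (-1.20 ± 0.28) and the cytokine Il15 (-2.68 ± 0.56) fell (edgeR, adjusted p = 0.0378, 0.00246 and 0.000832), these 3 being named after their values were seen. Tap1 and Nlrc5 were also higher in VFDM AZA, VFDM IFN, VF COMBO and VF IFN, where Irf1 itself was not called. Of 13 STAT3 targets tested in VFDM COMBO, with a median of -0.42, 9 were not called, 0 rose and 4 fell. They were the kinase Pim1 (-1.69 ± 0.20), Ccnd1, which encodes cyclin D1 (-1.22 ± 0.28), Hif1a (-0.98 ± 0.28) and the receptor chain Il6st (-1.46 ± 0.26; edgeR, adjusted p = 3.11e-07, 0.00248, 0.0124 and 0.00015), of which the last 3 were named after their values were seen. In VFDM AZA, VFDM IFN, VF AZA and VF IFN no STAT3 target was called. In VF COMBO Pim1 was called lower and Junb higher, although Stat3 itself was not called (edgeR, adjusted p = 0.174). Junb ranged from 5.42 to 127 CPM over the VF COMBO libraries. Of all genes, 923 of 22172 were called higher and 915 lower there.

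Genes whose pattern over the 31 libraries lay closest to that of a member were found among 10353 genes by the root mean square difference of centred log2 CPM. For Irf7 they were Usp18 (0.398), Isg15 (0.688), Ifit1 (0.718), Oasl1 (0.724) and Oas2 (0.725), the SD of Irf7 itself being 1.84. For Irf9 they were Sp100 (0.267), Adar (0.269), Ddx58 (0.270), Rabgap1l (0.286) and Parp14 (0.295), and for Stat2 Helz2 (0.266), Trim34a (0.267), Ddx58 (0.277), Parp14 (0.282) and Parp12 (0.293), against SDs of 0.59 and 0.60. Ddx58 and Parp14 were on both lists. For Irf1, with an SD of 0.54, they were Smad1 (0.263), Dab2ip (0.269), Hip1r (0.279), Prkce (0.285) and Cbx6 (0.298), and for Irf5, with an SD of 0.95, Srxn1 (0.538), Fam84b (0.540), Aldh1l1 (0.552), Tmem101 (0.553) and Arhgef40 (0.567). The libraries of a group share treatment and genotype, and this measure carries no test.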

How the data were processed

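RNA of sorted LT-HSCs was sequenced in 31 libraries. The authors deposited raw gene counts, not normalized. The submitters' processing notes name the build mm10, STAR 2.7.10a and featureCounts, with quality control by FastQC 0.11.5 and use of R 4.3.0. The sources used here give neither annotation nor strand setting, so overlapping genes are uncertain. Counts of 346 rows had no matched symbol and 5 rows are transgenes. Positions and exon lengths come from GENCODE vM21, promoter windows from RefSeq.

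The 31 libraries were scaled by TMM and filtered by filterByExpr (at least 10 reads, 15 in total) in edgeR 4.0.16 (R 4.3.3), and a robust quasi-likelihood model with 1 mean per group was fitted. All tests were two-sided, with Benjamini-Hochberg adjusted p over 22172 rows and a threshold of 0.05. There were 19 planned comparisons and 2 added ones. SE is the log2 fold change divided by the square root of F. List levels are log2 CPM with a prior count of 2. The labels do not say that each library is a separate animal, so p-values cover only the spread among libraries, which may be technical. A 0 is compatible with up to 0.174 CPM at the lowest depth (3 counts, counting error only). No 2 replicates agreed within sampling noise (lowest chi-square 19.6 per degree of freedom). Replicate numbers come from the titles.

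The members and lists were chosen with earlier results of these data known. All 8 members were described. From each list up to 4 genes were named by the smallest p in VF IFN with a mean log2 CPM of at least 2, and exceptions are marked. Some list genes are not reported here. Alternatives were RLE size factors, no filter, DESeq2 1.42.0, the compared groups alone, a replicate block and each library left out. Chosen after seeing the data were leaving out VF vehicle libraries 1 and 4 and leaving out libraries with fewer than 20000 detected rows. The latter leaves library 4 alone in VF COMBO. The model was tested on simulated data.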

Additional observations from a re-analysis of the deposited data

Results flagged for a closer look

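The azacytidine response differed between the genotypes by an interaction term for 3 members, where an effect of the drug in VFDM AZA libraries and a mix-up of treatment labels cannot be told apart. The VFDM minus VF difference of the log2 fold change was 1.29 for Irf9, 1.42 for Stat2 and 3.77 for Irf7. The response to the combination differed for Irf2, by -1.08. Irf9 in VFDM vehicle library 4 was at 58.0 CPM, a gap of 0.859 of the range of its group, while the other 3 libraries lay at 74.02 to 76.7 CPM. For this gap 56 groups of 4 libraries were examined, of which chance marks about 1 in 20.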

How the results depend on the processing

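The 47 called member changes were recomputed under the alternatives, which gave 695 pairs of a called change and an alternative. Many pairs share a fit, so they are not independent. In 640 pairs the call held, in 55 it was lost, and in 0 the direction reversed. In every alternative run, 31 of the 47 were called, among them each call of Irf7 and those of Irf9 and Stat2 in VF IFN, VFDM IFN and VFDM AZA against vehicle and in VFDM AZA against VF AZA. The cause of the changes below was not tested.

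With DESeq2, 4 members were called in VF IFN and 4 in VF COMBO, each against vehicle (3 in edgeR), and 2 in VFDM against VF vehicle (0 in edgeR). It called 5 in VFDM COMBO against VFDM IFN (4 in edgeR) and 5 below the sum of both drugs in VFDM (3 in edgeR). Of all genes, DESeq2 called 1000, 3317, 737, 2822 and 897 in these comparisons, in the same order. In a fit of the compared groups alone 0 members were called in VFDM COMBO against VF COMBO (3 over all groups), 1 in VF COMBO against VF AZA (3) and 0 in VFDM COMBO against VFDM AZA (5). Without libraries of fewer than 20000 detected rows, 7 were called below the sum in VFDM. That fit kept only libraries 2 and 4 of VFDM COMBO and libraries 1 and 2 of VFDM AZA. With 1 library left out the counts ran from 0 to 1 in VFDM against VF vehicle, from 1 to 3 in VFDM COMBO against VF COMBO, from 2 to 4 in VFDM COMBO against VFDM AZA, from 5 to 7 in VFDM COMBO, from 2 to 3 in VF COMBO and from 3 to 4 in VF IFN, each against vehicle.

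The replicate numbers did not pair the samples. Deviations of 105 same-numbered pairs had correlations of -0.12 to 0.173 (median -8e-04). With a replicate block 7 members were called in VFDM COMBO against vehicle, 3 in VF IFN and 4 in VFDM COMBO against VFDM AZA, where Irf5 was lost (adjusted p = 0.0708).

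Counts over all genes moved by more than 1.5 times in each comparison under some alternative. Over the alternatives they ran from 205 to 1040 in VF IFN (538 in edgeR), from 0 to 1023 in VF AZA (265), from 117 to 3317 in VF COMBO (1838), from 120 to 1092 in VFDM IFN (214), from 112 to 478 in VFDM AZA (205), from 2531 to 6062 in VFDM COMBO (3551), from 45 to 815 in VFDM against VF vehicle (212), from 100 to 494 in VFDM AZA against VF AZA (164), from 0 to 2323 in VFDM COMBO against VF COMBO (1132), from 61 to 460 for the azacytidine response (129), from 298 to 2029 for the combination response (830) and from 297 to 1353 for non-additivity in VFDM (451). The call of 22 ISGF3 targets in VFDM AZA ran from 20 to 22. Irf5 had 26 to 998 counts per library.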
